A study of Mus musculus with 24 samples.

Results

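Described here are 9 mouse genes across 24 RNA sequencing libraries of C3H 10T1/2 fibroblasts, an embryonic line that the transcription factor MyoD can turn towards muscle. The genes are Ly6e, Thbs2, C1qtnf1, Wnk4, Camk2a, Kcnn3, Ch25h, Nxf3 and Nhsl1, 9 of the 39169 genes that the files name. They were selected on their TPM: 2 clones lacking the long noncoding RNA LncMyoD held less of their RNA than wild-type cells, either untreated or with MyoD. Clones against wild type without plasmid is therefore the comparison that chose them, and values from those libraries are a description with no test. The files name one of the 9 genes on 280 transcript lines.

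The groups were LncMyoD-KO clone 1, LncMyoD-KO clone 2 and WT. Each line was sequenced in 4 states, namely no treatment, MyoD adenovirus, a plasmid carrying LncMyoD, and the adenovirus and the plasmid together, with 2 libraries for each of the 12 combinations. All cells had the C3H strain label and grew in 10% FBS, with 2% HS after the turn towards muscle. Each knockout line is a single clone, and the labels list no empty virus and no empty plasmid. PolyA RNA was copied with SMART-Seq v4, made for small amounts of RNA and blind to strand, so reads of a gene and of an overlapping gene on the other strand cannot be told apart. The labels do not say whether the 2 libraries of a group came from separate cultures, and what the p-values weigh is the spread between those 2, which may be technical.

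LncMyoD is transcribed near the gene for MyoD and is induced by MyoD during muscle differentiation. The 9 genes do not form a single pathway. Their products include a surface and 2 secreted proteins, 2 protein kinases, a potassium channel, an enzyme that oxidises cholesterol, an RNA export factor and an actin regulator. To look for the plasmid's RNA, spliced unnamed transcripts on the minus strand within 60 kb of the MyoD gene, Myod1, were searched. The span assembled in the most libraries given the plasmid was kept (mm10, chr7:46345772-46351188) and taken as LncMyoD by its place alone. Its presence in 12 of 12 libraries given the plasmid, at 2.64 to 53.3 TPM, is therefore what the search selected for. The choice did not use the libraries without plasmid, where it was present in 0 of 12. TPM is the abundance of a transcript per unit of length, usually scaled so that every library has the same total. The deposited values did not share a total. Their sum was 710312 to 922352 in clone 1, 956986 to 979898 in clone 2 and 810049 to 968266 in wild type, and they were used as deposited.

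The 3 lines did not give libraries of the same kind. A ribosomal RNA copy on chromosome 17 took 36.8 to 70% of TPM in clone 1, 2.68 to 7.9% in clone 2 and 55.6 to 69.2% in wild type, in libraries of 2.43 to 5.93 gigabases. Genes at 1 TPM or more numbered 4273 to 5759 in clone 1, 10416 to 13253 in clone 2 and 5449 to 6964 in wild type. Each coding transcript was split at its midpoint into a 5′ part and a 3′ part, and the median log2 ratio of 3′ to 5′ coverage was −1.06 to −0.90 in clone 1, 0.17 to 0.45 in clone 2 and −1.08 to −0.96 in wild type. On these 3 measures clone 1 and wild type overlapped, and all 8 clone 2 libraries stood apart. The summed level of 9 fibroblast markers was 265 to 329 TPM in clone 1, 5352 to 16089 TPM in clone 2 and 420 to 667 TPM in wild type. Markers of other cell types were summed in the same way. Across all treatments, those with MyoD among them, the 6 muscle markers came to 0 to 45.2 TPM in clone 1, 2.64 to 519 TPM in clone 2 and 1.02 to 82.8 TPM in wild type. The 5 neuron markers came to 1.19 to 9.85 TPM in clone 1, 10.5 to 26.6 TPM in clone 2 and 5.04 to 10.9 TPM in wild type, the 4 endothelial ones to 0 to 3.1, 2.61 to 16.2 and 0.0576 to 3.88 TPM, and the 3 adipocyte ones to 0.0452 to 4.77, 11.4 to 32.6 and 0 to 1.46 TPM. The 4 macrophage markers came to 0 to 6.6 TPM in clone 1, 0 to 4.26 TPM in clone 2 and 0 to 3.33 TPM in wild type, and the 4 epithelial ones to 0 to 2.6, 0 to 4.63 and 0 to 0.805 TPM. Single genes of a list did not move together. Of the fibroblast list, S100a4 was at 6.78 to 8.92 TPM in clone 1, 2469 to 3604 TPM in clone 2 and 13.9 to 22 TPM in wild type. Thy1 of that list was at 7.78 to 15.7 TPM in clone 1, 2.94 to 8.46 TPM in clone 2 and 6.15 to 8.3 TPM in wild type. Cdh5 of endothelium, Adgre1 of macrophages and Epcam of epithelium were at 0 in all 24 libraries. From the same lists, Tek was at 2.61 to 13.2 TPM in clone 2, Ptprc reached 6.6 TPM in clone 1 and Cdh1 reached 2.87 TPM in clone 2. Adipoq of adipocytes was at 3.39 to 11.6 TPM in clone 2 and at 0 in clone 1 and wild type. Plin1 of the same list was at 0 in clone 2 and wild type and reached 3.31 TPM in clone 1. The part of these differences in the results on clone 2 was not tested, and for each of the 9 genes the value for clone 1 alone with plasmid is given beside that of the mean.

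Stretches from 250 bases before to 50 bases after the start are shown for 3 genes, from RefSeq on GRCm38.p6 (mm10). Wnk4 and Thbs2 are shown because their measured direction depended on how transcripts were named, and Ch25h because it came nearest to wild type with the plasmid. Capitals mark each CANNTG, the E-box that MyoD and related factors can bind, which reads as the same pattern on both strands and includes CAGCTG.
Wnk4 (chr11:101260317-101260616, plus strand): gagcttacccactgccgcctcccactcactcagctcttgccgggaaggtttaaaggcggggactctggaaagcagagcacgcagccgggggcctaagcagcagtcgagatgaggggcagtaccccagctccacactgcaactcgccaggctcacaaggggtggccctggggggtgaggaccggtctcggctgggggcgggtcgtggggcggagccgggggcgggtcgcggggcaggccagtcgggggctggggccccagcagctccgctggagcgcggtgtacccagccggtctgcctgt
Thbs2 (chr17:14694213-14694512, minus strand): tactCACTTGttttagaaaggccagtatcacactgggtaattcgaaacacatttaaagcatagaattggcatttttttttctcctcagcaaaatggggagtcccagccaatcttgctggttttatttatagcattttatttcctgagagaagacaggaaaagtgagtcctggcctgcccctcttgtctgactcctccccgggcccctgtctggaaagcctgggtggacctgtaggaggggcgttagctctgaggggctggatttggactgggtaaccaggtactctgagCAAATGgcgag
Ch25h (chr19:34475099-34475398, minus strand): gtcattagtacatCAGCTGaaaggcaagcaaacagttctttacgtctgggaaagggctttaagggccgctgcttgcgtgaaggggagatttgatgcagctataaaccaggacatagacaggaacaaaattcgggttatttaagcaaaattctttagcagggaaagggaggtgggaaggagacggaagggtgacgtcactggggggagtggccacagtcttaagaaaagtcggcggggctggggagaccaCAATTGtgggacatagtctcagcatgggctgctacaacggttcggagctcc
The Wnk4 stretch holds 0 such sites, the Thbs2 stretch 2 and the Ch25h stretch 2, of which 1 is CAGCTG. Among 32851 promoter stretches of the same length, 72.3% hold a CANNTG and 16.3% a CAGCTG. A match is a run of letters and no evidence of binding. RefSeq stretches matched 5 of the 9 genes.

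The way a transcript was named decided what the files say of these genes. Transcripts were assembled from the reads, and only those that match an annotated transcript carry a gene name. Unnamed transcripts with at least 50% of their exonic length on a gene's exons, on its strand, made up 99.7% of the summed TPM of Nhsl1 in wild type, 97.6% of Wnk4, 92.8% of Nxf3, 88.6% of Thbs2, 79.9% of Kcnn3 and 40.1% of Camk2a. For C1qtnf1, Ly6e and Ch25h the wild-type share was 7.74%, 0.142% and 0%. In clone 2 the share was 0.563% for Thbs2, 46.2% for Wnk4 and 52.3% for Ly6e, each over 50 points away from wild type. Levels below are sums of named and unnamed transcripts unless named transcripts alone are stated.

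**Figure D1:**
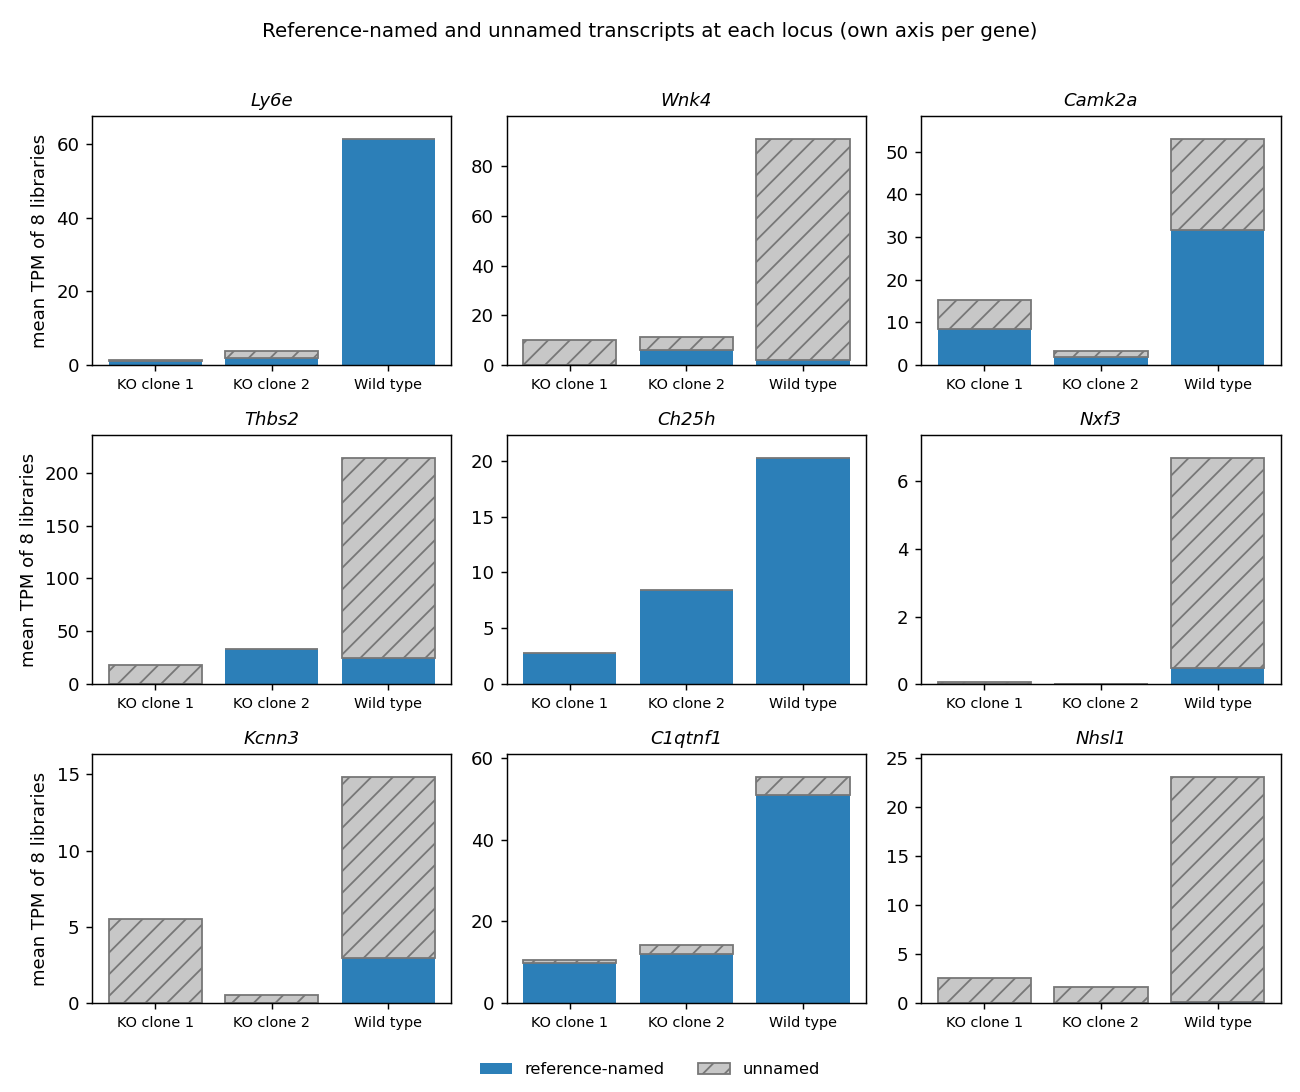
Mean TPM over the 8 libraries of each line, named transcripts solid and unnamed transcripts hatched on top, with 1 panel and 1 axis for each gene. Unnamed transcripts are 97.6% of Wnk4 and 99.7% of Nhsl1 in wild type but 0.563% of Thbs2 in clone 2.

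Summed in this way, both libraries of a clone lay below both wild-type libraries of the same treatment for 9 of 9 genes, in either clone and in all 4 states. Untreated and with MyoD that is what the choice of genes looked for: of 20000 genes, 33.7% were ordered so in clone 1 and 5.7% in clone 2 untreated, and 30.7% in clone 1 and 10.6% in clone 2 with MyoD. The choice did not use the libraries with plasmid, where 21.4% of all genes were ordered so in clone 1 and 4.16% in clone 2. With both agents the shares of all genes were 20.9% in clone 1 and 6.63% in clone 2. By named transcripts alone, 5 of the 9 genes lay below wild type in each clone with plasmid, against 22.4% of all genes in clone 1 and 4.55% in clone 2, and 6 in clone 1 and 5 in clone 2 with both agents, against 23.3% and 8.55%.

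**Figure D2:**
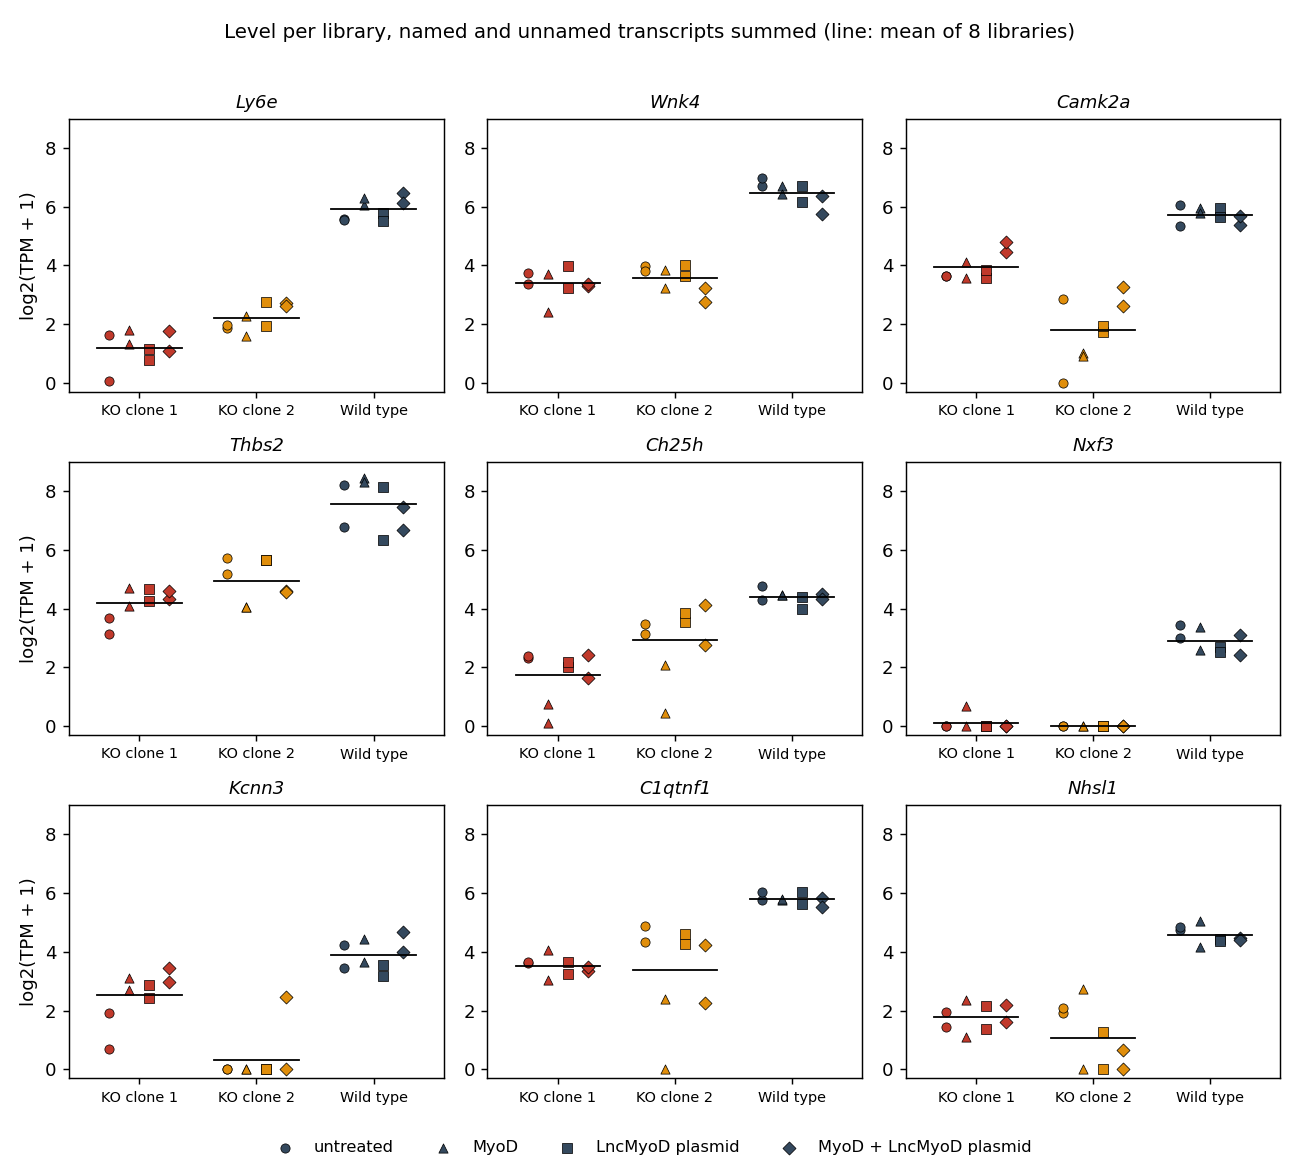
Level of each gene in each of the 24 libraries as log2(TPM + 1), with clone 1, clone 2 and wild type from left to right, the treatment by marker and the mean of 8 libraries as a line. Across treatments a clone overlaps wild type for 2 of the 9 genes, Ch25h, where clone 2 reaches 16.3 TPM and the lowest wild-type library is 14.7 TPM, and Kcnn3, where clone 1 reaches 10 TPM and the lowest wild-type library is 8.15 TPM. The untreated and MyoD libraries shown are those that chose the genes. The share of all genes without overlap across treatments was not computed.

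Clones and wild type were tested in the libraries with plasmid, with limma on log2(TPM + 1) fitted over all genes and 12 libraries. Calls needed a log2 difference of 1 or more and a p under 0.05 after Benjamini-Hochberg adjustment. With plasmid, Ly6e, Camk2a, Ch25h and C1qtnf1 fell in the mean of the clones by named transcripts, 4 of 9 genes (7 tested), while 1.51% of all genes were called lower and 42.8% higher. With unnamed transcripts added, 9 of 9 fell, against 1.36% of all genes lower and 40.9% higher. Nxf3 is among these 9 but passed the filter on low values through wild type alone, so it could only be called lower. It is part of every count and median of the 9 genes below with unnamed added or over the fixed length. With MyoD and plasmid, Ly6e, Ch25h and C1qtnf1 fell by named transcripts, 3 of 9, against 2.88% of all genes lower and 34.9% higher, and 9 of 9 fell with unnamed transcripts added, against 2.06% lower and 35.5% higher. The median difference of the 9 genes with unnamed added was −2.61 with plasmid and −2.54 with both agents, beside 0.94 and 0.76 for all genes. With all bases of a gene set over its fixed annotated exonic length, 8 of 9 fell with plasmid (1.38% of all genes) and 9 with both (2.5%).

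Clone 1 alone was lower for 6 of 9 genes with plasmid (0.588% of all genes) and 5 of 9 with both agents (0.746%), with unnamed transcripts added. Clone 2 alone was lower for 8 of 9 (1.57%) and 8 of 9 (2.82%). The median difference of all genes was −0.07 and −0.05 in clone 1 and 2.00 and 1.64 in clone 2, so the lower levels in clone 2 went against the shift of its median gene.

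**Figure D3:**
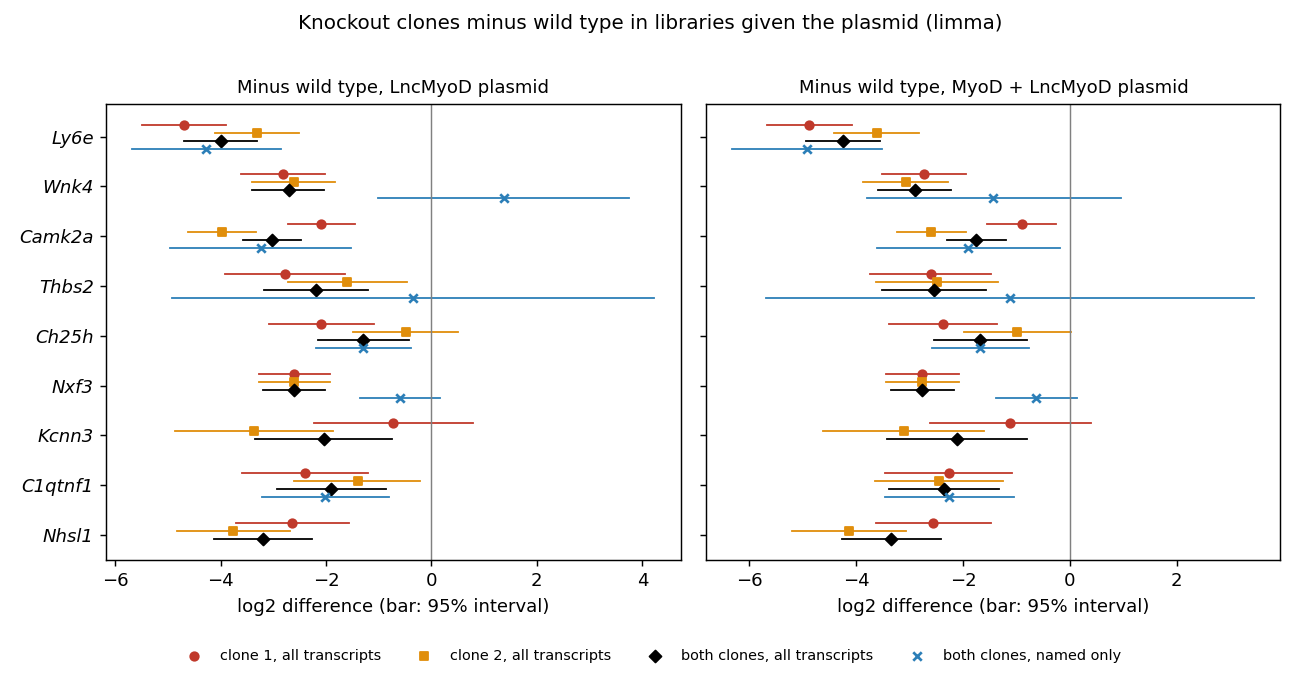
Log2 difference from wild type with plasmid (left) and with MyoD and plasmid (right), for each clone and their mean, with 95% intervals; crosses give the mean of the clones by named transcripts, absent for Kcnn3 and Nhsl1. With unnamed transcripts added every mean lies between −4.24 and −1.29, whereas by named transcripts Wnk4 is at 1.37 with plasmid.

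Ly6e encodes a GPI-anchored surface protein known to restrict entry of coronaviruses (mm10, chr15:74955051-74959905, plus strand). Clone 1 held Ly6e at 0.0405 and 2.11 TPM untreated, 1.5 and 2.46 with MyoD, 0.715 and 1.23 with plasmid and 1.1 and 2.44 with both agents. Clone 2 held Ly6e at 2.65 and 2.96 TPM untreated, 3.8 and 2.01 with MyoD, 2.87 and 5.71 with plasmid and 5.65 and 5.17 with both agents. Wild type held Ly6e at 47.2 and 45.9 TPM untreated, 65 and 77.9 with MyoD, 54.2 and 45.1 with plasmid and 87.3 and 68.6 with both agents. The clones and wild type were far apart in every state, and the clone means were 2.36% of wild type in clone 1 and 6.27% in clone 2. Ly6e fell by 4.27 with plasmid on the log2 scale by named transcripts (SE 0.611, adjusted p = 0.000739, limma) and by 4.0 with unnamed added (SE 0.306, adjusted p = 4.18e-05). With both agents it fell by 4.91 (SE 0.611, adjusted p = 0.000394) and by 4.24 (SE 0.306, adjusted p = 2.58e-05). Clone 1 alone fell by 4.69 and clone 2 alone by 3.31 with plasmid. The leading named transcript held 23.1% of the summed TPM in clone 1, 14.9% in clone 2 and 45.7% in wild type, and it was a different transcript in each line. Per gigabase, coverage of the 5′ part of the transcript that led in wild type was 0.00102 to 1.18 in clone 1, 0.382 to 1.87 in clone 2 and 27.8 to 51.6 in wild type.

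Thbs2 encodes thrombospondin 2, a matricellular glycoprotein of fibroblasts that limits vessel growth (chr17:14665500-14694235, minus strand). Clone 1 held Thbs2 at 7.9 and 11.9 TPM untreated, 16.1 and 24.9 with MyoD, 24.7 and 18.2 with plasmid and 19.3 and 23.5 with both agents. Clone 2 held Thbs2 at 35.7 and 52.5 TPM untreated, 15.5 and 15.8 with MyoD, 49.5 and 49.1 with plasmid and 23.3 and 23 with both agents. Wild type held Thbs2 at 108 and 297 TPM untreated, 351 and 315 with MyoD, 282 and 80.6 with plasmid and 176 and 102 with both agents. Every clone library lay under the lowest wild-type library, and the wild-type libraries themselves were widely spread. In clone 1 the leading transcript of 7 of 8 libraries was an unnamed one of 13 exons with its 3′ end at position 14678809, inside the gene. In all 8 clone 2 libraries it was the full annotated transcript, of 22 exons and 5895 nt. Wild type had both kinds by name: the annotated transcript led in 1 library with plasmid, at 79 TPM, and in 1 with both agents, at 113 TPM. In those libraries coverage per gigabase was 125 and 204 in its 5′ part but only 1.25 and 0.84 in its 3′ part. The name there is thus no sign of a full-length transcript.
The 5′ part of the annotated Thbs2 transcript had a coverage per gigabase of 5.3 to 14.1 in clone 1, 7.56 to 26.8 in clone 2 and 103 to 204 in wild type. Its 3′ part had 0 to 0.512 in clone 1, 7.33 to 17.6 in clone 2 and 0 to 1.25 in wild type. Clone 2 was thus below wild type in the 5′ part and above it in the 3′ part, with no overlap in either. By named transcripts Thbs2 gave −0.35 with plasmid (SE 1.99, adjusted p = 0.898, limma) and −1.12 with both agents (SE 1.99, adjusted p = 0.69). With unnamed added it fell by 2.19 (SE 0.434, adjusted p = 0.00317) and by 2.54 (SE 0.434, adjusted p = 0.00156). The first value was −1.29 without replicate 1 of wild type and −3.08 without replicate 2, and with plasmid clone 1 alone fell by 2.78 (adjusted p = 0.0484) and clone 2 alone by 1.60 (adjusted p = 0.0175). Over the fixed annotated length it fell by 2.09 with plasmid (SE 0.218, adjusted p = 6.13e-05), with clone 1 alone at −3.27 and clone 2 alone at −0.90, the second under the size needed for a call.

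C1qtnf1 encodes a secreted protein of the C1q and TNF-related family (chr11:118428203-118449963, plus strand). Clone 1 held C1qtnf1 at 11.2 and 11.7 TPM untreated, 7.21 and 15.8 with MyoD, 11.6 and 8.47 with plasmid and 9.17 and 10.1 with both agents. Clone 2 held C1qtnf1 at 19.1 and 28.2 TPM untreated, 4.21 and 0 with MyoD, 18.4 and 23.4 with plasmid and 3.75 and 17.6 with both agents. Wild type held C1qtnf1 at 54.1 and 65.1 TPM untreated, 53.3 and 54.4 with MyoD, 65.3 and 48.9 with plasmid and 56.2 and 45 with both agents. Clone 1 stayed within a narrow range, and clone 2 was lowest with MyoD alone, where 1 library was at 0. Both parts of the annotated transcript gave nearly the same coverage, with medians of 7.19 and 7.43 in clone 1, 7.05 and 7.77 in clone 2 and 34.6 and 35.5 in wild type. C1qtnf1 fell by 2.01 with plasmid by named transcripts (SE 0.527, adjusted p = 0.0129, limma) and by 1.90 with unnamed added (SE 0.457, adjusted p = 0.00812). With both agents it fell by 2.26 (SE 0.527, adjusted p = 0.00866) and by 2.36 (SE 0.457, adjusted p = 0.00303). Clone 1 alone missed the threshold with plasmid (−2.40, adjusted p = 0.0941), and so did the mean of the clones without replicate 1 of wild type (−1.69, adjusted p = 0.0631; named transcripts −1.82, adjusted p = 0.0838). By named transcripts the call was also lost without replicate 2 of wild type (−2.20, adjusted p = 0.0519), and with both agents without replicate 1 (−2.18, adjusted p = 0.0575).

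Wnk4 encodes a with-no-lysine kinase that controls cation-chloride cotransporters, best known in the kidney (chr11:101260567-101277409, plus strand). Clone 1 held Wnk4 at 9.29 and 12.3 TPM untreated, 4.39 and 12.1 with MyoD, 14.9 and 8.47 with plasmid and 8.79 and 9.33 with both agents. Clone 2 held Wnk4 at 14.7 and 13.1 TPM untreated, 8.48 and 13.4 with MyoD, 15.1 and 11.4 with plasmid and 5.71 and 8.44 with both agents. Wild type held Wnk4 at 104 and 126 TPM untreated, 103 and 85.2 with MyoD, 104 and 69.8 with plasmid and 53.6 and 81 with both agents. The clones shared a narrow range under wild type, with means of 11% of wild type in clone 1 and 12.4% in clone 2. The leading transcript was unnamed in all libraries of clone 1 and wild type, while the full annotated transcript, of 19 exons, led in 5 of 8 clone 2 libraries. Named transcripts alone therefore gave 0 to 0.275 TPM in clone 1, 0 to 11 TPM in clone 2 and 0 to 16.4 TPM in wild type. With plasmid they gave 1.37 in the mean of the clones (SE 1.04, adjusted p = 0.302, limma), and clone 2 alone rose by 3.08 (adjusted p = 0.0455), where 67.3% of all genes rose.
With unnamed added, Wnk4 fell by 2.71 with plasmid (SE 0.303, adjusted p = 0.00018, limma) and by 2.90 with both agents (SE 0.303, adjusted p = 0.000115); the named value with both was −1.43 (adjusted p = 0.327). With plasmid clone 1 alone fell by 2.82 and clone 2 alone by 2.61. Both parts of that transcript lay below wild type in every clone library, the 3′ part at 0.62 to 2.73 in clone 1, 2.15 to 9.37 in clone 2 and 14.3 to 25 in wild type.

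Camk2a encodes the alpha subunit of calcium/calmodulin-dependent protein kinase II, abundant in forebrain neurons (chr18:60925618-60988152, plus strand). Clone 1 held Camk2a at 11.5 and 11.6 TPM untreated, 10.9 and 16.4 with MyoD, 10.9 and 13.5 with plasmid and 21.1 and 26.9 with both agents. Clone 2 held Camk2a at 0 and 6.28 TPM untreated, 1.01 and 0.904 with MyoD, 2.34 and 2.82 with plasmid and 5.18 and 8.6 with both agents. Wild type held Camk2a at 40 and 66.5 TPM untreated, 61.5 and 54.1 with MyoD, 61.3 and 49.1 with plasmid and 40.5 and 50.9 with both agents. Clone 2 was lowest, clone 1 between and wild type highest in all 4 states, and clone 1 came nearest to wild type with both agents, at 52.4% of its mean. The leading named transcript in all 3 lines has 7 exons and starts inside the gene at position 60963554. Camk2a fell by 3.24 with plasmid by named transcripts (SE 0.747, adjusted p = 0.00732, limma) and by 3.03 with unnamed added (SE 0.246, adjusted p = 4.68e-05). With both agents the named value was −1.90 (SE 0.747, adjusted p = 0.075), and with unnamed added it fell by 1.75 (SE 0.246, adjusted p = 0.000549). Clone 1 alone fell by 2.09 with plasmid and was at −0.90 with both (adjusted p = 0.197). Without replicate 1 of wild type with plasmid the named call was lost (−3.08, adjusted p = 0.0511). Of the 5 neuron markers, Map2 was at 1.19 to 6.09 TPM in clone 1, 8.84 to 23.3 TPM in clone 2 and 5.04 to 10.9 TPM in wild type, Rbfox3 was at 0 in clone 1 and wild type and at 0 to 0.692 TPM in clone 2, and Snap25, Syp and Tubb3 reached at most 3.75 TPM in clone 1, 2.67 TPM in clone 2 and 2.11 TPM in wild type.

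Kcnn3 encodes SK3, a small-conductance potassium channel opened by calcium (chr3:89520164-89675132, plus strand). Clone 1 held Kcnn3 at 0.63 and 2.75 TPM untreated, 7.62 and 5.54 with MyoD, 4.34 and 6.31 with plasmid and 10 and 6.87 with both agents. Clone 2 held Kcnn3 at 0 and 0 TPM untreated, 0 and 0 with MyoD, 0 and 0 with plasmid and 0 and 4.45 with both agents. Wild type held Kcnn3 at 9.9 and 17.9 TPM untreated, 11.7 and 20.8 with MyoD, 10.6 and 8.15 with plasmid and 14.8 and 24.8 with both agents. In clone 2, 7 of 8 libraries were listed at 0, and clone 1 was lowest untreated. An unnamed transcript of 3 exons, ending near position 89609522 inside the gene, led in 7 of 8 clone 1 and 7 of 8 wild-type libraries. By named transcripts alone the gene did not pass the filter on low values in the libraries with plasmid. With unnamed added Kcnn3 fell by 2.04 with plasmid (SE 0.576, adjusted p = 0.0168, limma) and by 2.12 with both agents (SE 0.576, adjusted p = 0.016). Clone 2 alone fell by 3.37 with plasmid (adjusted p = 0.00146), while clone 1 alone was at −0.72 (95% interval −2.23 to 0.78, adjusted p = 0.867). The call with plasmid was lost without replicate 1 of wild type (−1.87, adjusted p = 0.0981) or replicate 2 (−2.22, adjusted p = 0.0698), and with both agents without replicate 2 (−1.76, adjusted p = 0.128). Over the fixed length the difference with plasmid was −0.87, under the size needed for a call.

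Ch25h encodes cholesterol 25-hydroxylase, the enzyme that makes 25-hydroxycholesterol (chr19:34473778-34475164, minus strand). It has 1 exon, and all its RNA was listed under its annotated transcript. Clone 1 held Ch25h at 3.94 and 4.28 TPM untreated, 0.0799 and 0.682 with MyoD, 3.02 and 3.54 with plasmid and 2.11 and 4.4 with both agents. Clone 2 held Ch25h at 10.1 and 7.86 TPM untreated, 0.377 and 3.23 with MyoD, 10.8 and 13.3 with plasmid and 5.75 and 16.3 with both agents. Wild type held Ch25h at 18.5 and 26.1 TPM untreated, 20.9 and 21.1 with MyoD, 20.1 and 14.7 with plasmid and 21.5 and 19.1 with both agents. Wild type was even across the 4 states, and both clones were lowest with MyoD alone. Clone 2 with plasmid was at 69.3% of wild type, the nearest of any clone group and gene. Ch25h fell by 1.29 with plasmid (SE 0.395, adjusted p = 0.0253, limma) and by 1.68 with both agents (SE 0.395, adjusted p = 0.00901). With plasmid neither clone was called alone, clone 1 at −2.09 (95% interval −3.09 to −1.09, adjusted p = 0.0808) and clone 2 at −0.49 (95% interval −1.49 to 0.51, adjusted p = 0.349). With both agents clone 1 alone fell by 2.38 (adjusted p = 0.0472), and clone 2 was at −0.98 (95% interval −1.98 to 0.02, adjusted p = 0.0849).
The Ch25h call with plasmid was lost without replicate 1 of wild type (−1.07, adjusted p = 0.148), replicate 2 of wild type (−1.5, adjusted p = 0.0648), replicate 1 of clone 1 (−1.24, adjusted p = 0.0586) or replicate 1 of clone 2 (−1.22, adjusted p = 0.0619). With both agents it was lost without replicate 1 of wild type (−1.59, adjusted p = 0.0614). Gm26902, which overlaps Ch25h on the other strand, was at 0 to 0.264 TPM in clone 1, 0 to 2.35 TPM in clone 2 and 0 to 0.467 TPM in wild type.

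Nxf3 encodes a nuclear RNA export factor of the X chromosome (chrX:136072099-136085255, minus strand). Clone 1 held Nxf3 at 0 and 0 TPM untreated, 0 and 0.624 with MyoD, 0 and 0 with plasmid and 0 and 0 with both agents. Clone 2 was listed at 0 in 8 of 8 libraries. Wild type held Nxf3 at 9.86 and 6.98 TPM untreated, 9.45 and 5.08 with MyoD, 5.49 and 4.7 with plasmid and 4.31 and 7.61 with both agents. The clone 1 value came from an unnamed transcript of 3 exons and 388 nt, while the leading transcripts of wild type had 20 or 21 exons. No fold can be given against groups at 0. On the log2(TPM + 1) scale Nxf3 fell by 2.61 with plasmid (SE 0.259, adjusted p = 0.000103, limma) and by 2.76 with both agents (SE 0.259, adjusted p = 6.87e-05), with unnamed added. The gene passed the filter on low values through wild type alone, and the clone libraries with plasmid, all at 0, have no spread, so clone 1 and clone 2 each gave −2.61 with plasmid. Named transcripts reached at most 1.19 TPM and gave −0.60 (adjusted p = 0.163) and −0.63 (adjusted p = 0.171).

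Nhsl1 encodes a relative of the Nance-Horan syndrome protein that binds the Scar/WAVE complex at the edge of moving cells (chr10:18318985-18533892, plus strand). Clone 1 held Nhsl1 at 2.86 and 1.73 TPM untreated, 4.19 and 1.15 with MyoD, 3.45 and 1.56 with plasmid and 3.56 and 2.04 with both agents. Clone 2 held Nhsl1 at 2.76 and 3.23 TPM untreated, 0 and 5.6 with MyoD, 0 and 1.41 with plasmid and 0.567 and 0 with both agents. Wild type held Nhsl1 at 25.9 and 27.5 TPM untreated, 17.1 and 32 with MyoD, 20.5 and 19.6 with plasmid and 21.4 and 20.4 with both agents. The clone means were 11.1% of wild type in clone 1 and 7.36% in clone 2, where 3 of 8 libraries were listed at 0. An unnamed transcript of 5 exons led in all 8 wild-type libraries, in 3 of them starting at position 18431198, and named transcripts, at most 0.415 TPM, were not tested. With unnamed added Nhsl1 fell by 3.20 with plasmid (SE 0.411, adjusted p = 0.000343, limma) and by 3.34 with both agents (SE 0.411, adjusted p = 0.00027). With plasmid clone 1 alone fell by 2.64 (adjusted p = 0.0484) and clone 2 alone by 3.76 (adjusted p = 8.83e-05).

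Coverage along the annotated transcripts split the genes. In wild type, C1qtnf1 was even along its length. Wnk4, Ly6e and Nxf3 had medians of 61.8, 37.7 and 5.24 in the 5′ part and 16.1, 15.2 and 2.47 in the 3′ part, and both parts were below wild type in every clone library. Camk2a, Kcnn3, Nhsl1 and Thbs2 had little in the 3′ part in wild type, with medians of 0.395, 0.507, 1.58 and 0.668, and there at least 1 clone was not below wild type. In the 5′ part all 4 of these genes were below wild type in every clone 2 library, and in every clone 1 library except for Kcnn3, at 0.0582 to 7.28 in clone 1 and 6.28 to 17.5 in wild type. Ch25h, a single exon, has 1 listed value for both parts.

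**Figure D4:**
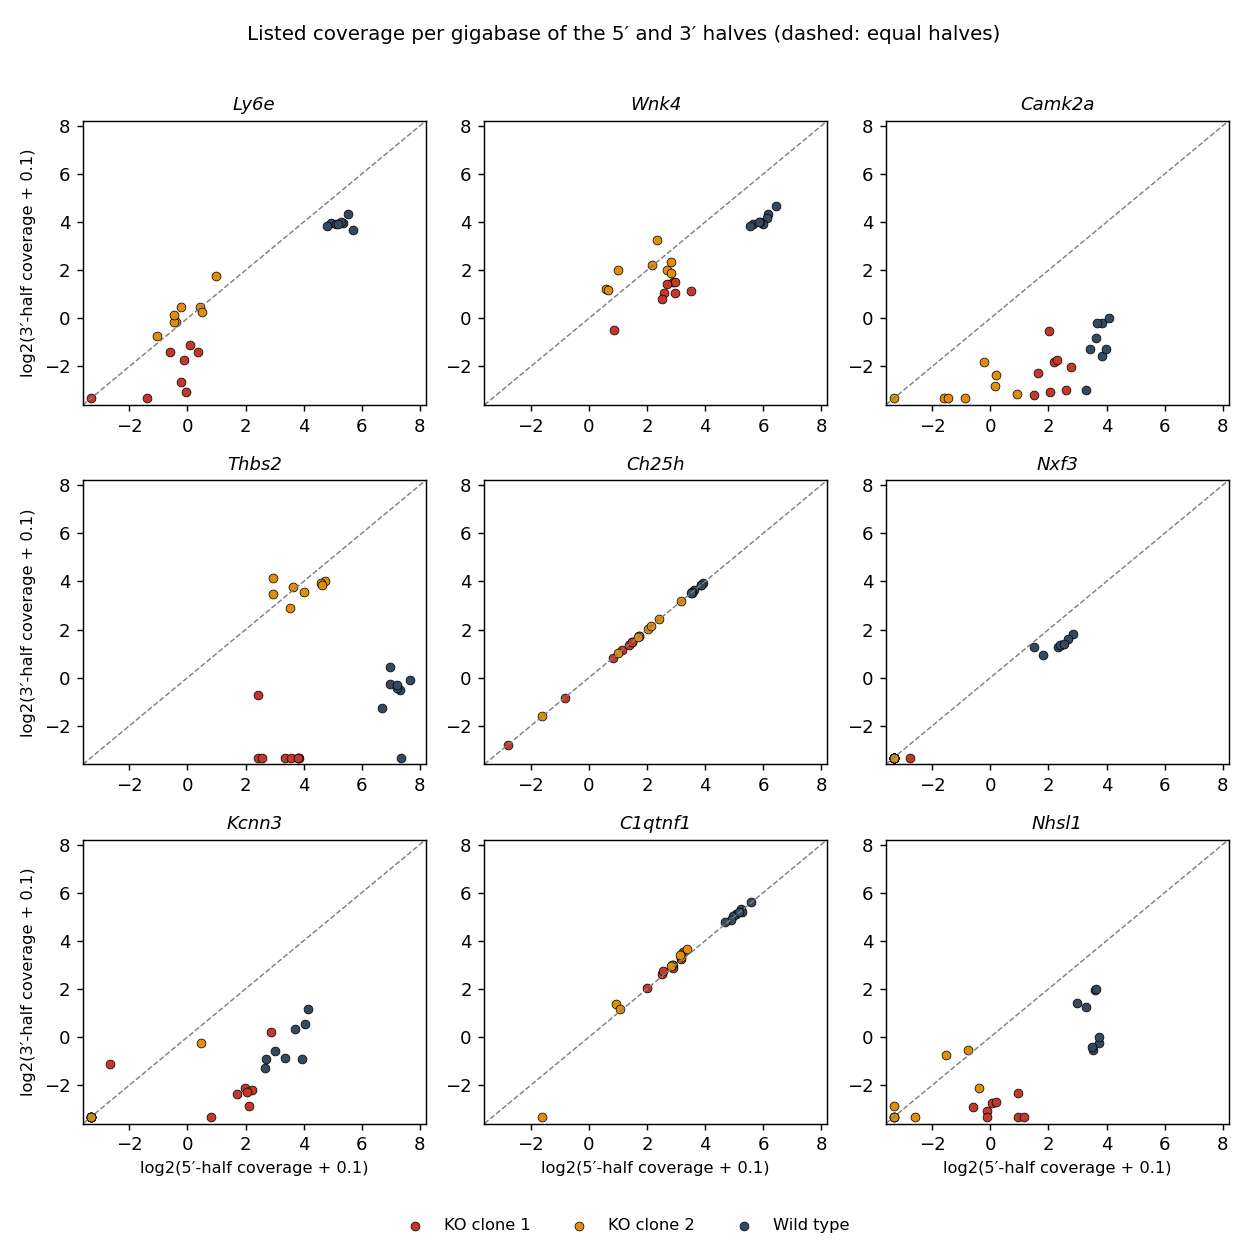
Listed coverage per gigabase of the 3′ part against the 5′ part of the annotated transcript, as log2(coverage + 0.1), for the 8 libraries of each line; the dashed line marks equal coverage. Thbs2 has a 3′ median of 13.9 in clone 2 and 0.668 in wild type, against 5′ medians of 14.3 and 149.

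Whether the plasmid brought the genes back was described from levels with and without it and not tested, since the groups without plasmid chose the genes. In 0 of 9 genes, in either clone, did any library with the plasmid reach the lowest wild-type library of the same treatment. Of all genes, 21.4% did not reach it in clone 1 and 4.16% in clone 2, and with both agents 20.9% and 6.63%. By named transcripts 4 of 9 genes reached it in each clone with plasmid, and 3 in clone 1 and 4 in clone 2 with both agents. Named transcripts of Wnk4, Thbs2, Kcnn3 and Nhsl1 were at 0 in some wild-type libraries, a level that any library reaches. The plasmid less the untreated state spanned −0.26 to 1.34 (log2, median 0.07) in clone 1, with both libraries higher for Thbs2 and Kcnn3 (15.5% of all genes) and both lower for Ch25h (9.54%). In clone 2 it spanned −1.36 to 0.42 (log2, median 0.00), with Ch25h higher (15.9% of all genes) and Nhsl1 lower (13.5%). In wild type it spanned −0.61 to 0.09 (log2, median −0.34), with 0 of the 9 higher (5.36% of all genes) and Nxf3 and Nhsl1 lower (23.3%).
With MyoD present, both libraries with the plasmid were higher than both without it for Camk2a and Ch25h in clone 1 (13.1% of all genes), for Ly6e, Camk2a, Thbs2 and Ch25h in clone 2 (22.2%) and for 0 of the 9 in wild type (6.67%). Both were lower for 0 of the 9 in clone 1 (10.1%), for Wnk4 in clone 2 (8.11%) and for Wnk4, Camk2a and Thbs2 in wild type (23.1%). The median difference was 0.16 in clone 1, 0.75 in clone 2 and −0.16 in wild type. Ch25h averaged 3.26 TPM with both agents and 0.381 TPM with MyoD alone in clone 1. In clone 2 it averaged 11 TPM with both and 1.8 TPM with MyoD alone, and in wild type 20.3 and 21 TPM. As a share of wild type in the same state this was 16% and 1.81% in clone 1, and 54.3% and 8.58% in clone 2. With MyoD alone Ch25h was also lower than untreated in both clones, and with both agents it stood close to its level with plasmid alone, 3.28 TPM in clone 1 and 12 TPM in clone 2. Ly6e, Wnk4, Nxf3 and Nhsl1 were at 15.2% of wild type or less in both clones with plasmid and with both agents.
The transcript near Myod1 that was taken as LncMyoD was at 41.6 and 36.4 TPM (clone 1), 11.9 and 11 TPM (clone 2) and 5.78 and 6.77 TPM (wild type) with plasmid. With both agents it was at 16.8 and 53.3 TPM (clone 1), 4.48 and 3.47 TPM (clone 2) and 2.64 and 8.16 TPM (wild type).

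**Figure D5:**
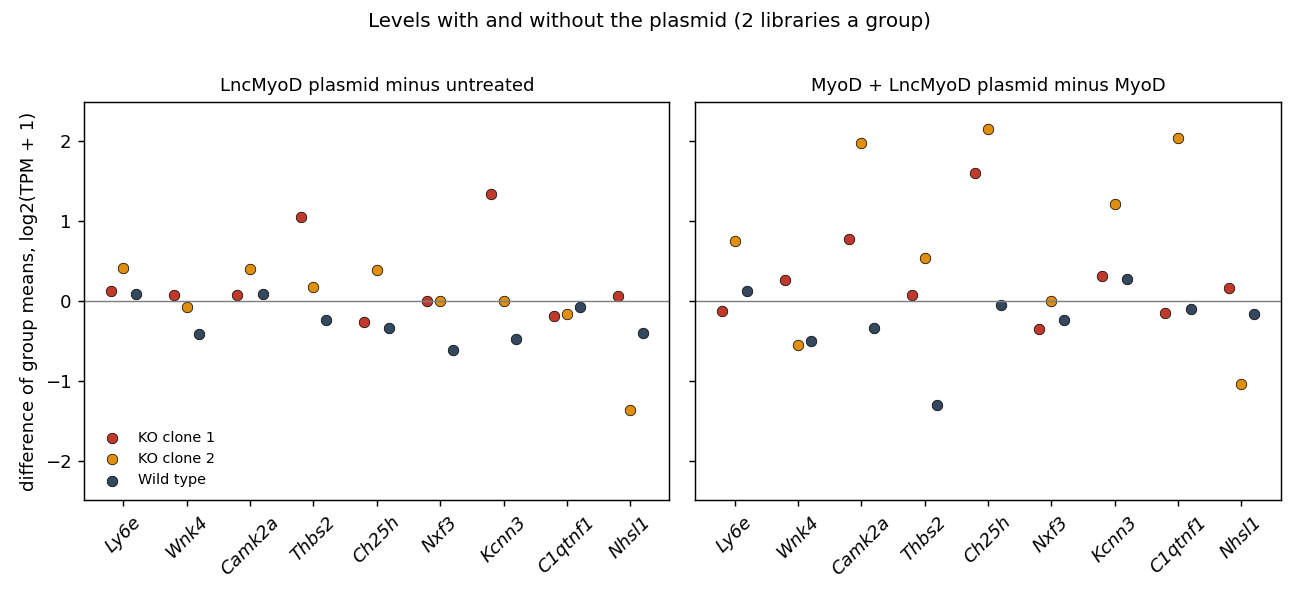
Difference with minus without the plasmid in the means of log2(TPM + 1), for the untreated state (left) and with MyoD (right), in clone 1, clone 2 and wild type, with 2 libraries a group and no test. With MyoD, Ch25h is at 1.60 in clone 1, 2.16 in clone 2 and −0.05 in wild type.

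The response to MyoD was tested within each line in the libraries with plasmid. In clone 1, 0 of 9 genes were called (0.243% of all genes by named transcripts and 0.112% with unnamed added), and in wild type 0 of 9 (0.243% and 0.0705%). In clone 2, 0 of 9 were called by named transcripts (13.8% of all genes), and with unnamed added Camk2a rose by 1.11 (SE 0.284, adjusted p = 0.043, limma; 8.76% of all genes). Over the fixed length Camk2a was at 0.67 in clone 2 (adjusted p = 0.0784), while Wnk4 and Thbs2, 2 of 9 genes (15.4% of all genes), were at −1.41 (adjusted p = 0.015) and −1.05 (adjusted p = 0.0203). With unnamed added, Camk2a was at 0.91 in clone 1 (adjusted p = 0.42); among the 9 genes, 1 in clone 1 and 0 in wild type were under 0.05 before adjustment by limma. The response of the clones less that of wild type was called for 0 of 9 genes (0.986% of all genes by named transcripts and 0.047% with unnamed added), and with unnamed added 1 of 9, Camk2a, was under 0.05 before adjustment by limma, at 1.28 (adjusted p = 0.323). Over the fixed length the response of clone 2 less that of wild type was called for 1 of 9 genes, Thbs2, at −1.64 (adjusted p = 0.0317, limma; 6.64% of all genes), while that of the clones was at −1.06 (adjusted p = 0.265). Myod1 was at 2479 and 3641 TPM (clone 1), 1220 and 1222 TPM (clone 2) and 3301 and 3659 TPM (wild type) with both agents.

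The clones differed from each other at several of the genes. With plasmid and unnamed transcripts added, clone 2 was lower than clone 1 for Camk2a and Kcnn3 and higher for Ly6e and Ch25h, 4 of 9 genes, where 70.4% of all genes were called. By named transcripts 3 of 9 were called, Camk2a lower and Wnk4 and Ch25h higher (70.9% of all genes). With both agents 5 of 9 were called with unnamed added, those 4 and Nhsl1, which was lower (61.6%), and 1 of 9, Ch25h, by named transcripts (57.9%). Ly6e was 1.38 and 1.25 higher in clone 2 and Ch25h 1.60 and 1.40, below the median of all genes, 2.15 and 1.80. Camk2a, at −1.88 and −1.69, and Kcnn3, at −2.64 and −2.00, went against that median. Direction for the 2 genes that were higher depended on scaling and, for Ly6e, also on the transcripts counted. By named transcripts as deposited, Ly6e was at 1.52 (adjusted p = 0.0822, limma) with plasmid and −0.08 with both agents. Ch25h had the same 1.60 and 1.40. With median-of-ratios scaling, which brings the median of all genes to 0.28 and 0.24, named transcripts put Ch25h lower in clone 2, at −1.5 (adjusted p = 0.0132, limma) and −1.35 (adjusted p = 0.0197), and Ly6e at −0.50 (adjusted p = 0.371) and −1.72 (adjusted p = 0.00966). Camk2a was lower in clone 2 there too, at −3.82 and −4.31. So was C1qtnf1, at −2.38 and −2.82, which as deposited was at 0.93 and −0.03 and not called. The Wnk4 difference with plasmid, 3.43 by named transcripts, was 0.20 with unnamed added (adjusted p = 0.616, limma). With the ribosomal copy and mitochondria left out as well, Wnk4 was lower in clone 2, at −1.17 (adjusted p = 0.0167, limma).

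Relatives and partners of the 9 genes were followed as 9 lists of 93 genes in all, 71 of them tested with unnamed added. With plasmid 0 of 71 fell and 36 rose in the mean of the clones (1.36% and 40.9% of all genes), and with both agents 1 fell and 32 rose (2.06% and 35.5%). In clone 1 alone 1 fell, Nhsl2 (−1.82, adjusted p = 0.0355, limma), and 0 rose with plasmid (0.588% and 0.253% of all genes), and with both agents 1 fell, Ly6a (−1.36, adjusted p = 0.0432), and 0 rose (0.746% and 0.217%). The list median was 1.21 with plasmid and 0.99 with both, beside 0.94 and 0.76 for all genes. By named transcripts 55 were tested, with 0 lower and 30 higher with plasmid, and 3 lower and 19 higher with both. Thbs1, encoding thrombospondin 1, fell by 1.38 with both agents (SE 0.367, adjusted p = 0.0141, limma) and was at −0.02 with plasmid. Lrp1 and Abca1 fell by 1.95 (adjusted p = 0.000786) and 3.92 (adjusted p = 0.0103) by named transcripts, but were at −0.14 and −0.13 with unnamed added.
In the family of Ly6e, 0 of 9 genes tested fell and 6 rose in the mean of the clones with plasmid, and 0 rose in clone 1 alone. Ly6a, the Sca-1 antigen, was at 21.8 to 35 TPM in clone 1, 285 to 559 TPM in clone 2 and 41.8 to 69.7 TPM in wild type. Cd59a, an inhibitor of complement, was at 0 to 4.95 TPM in clone 1, 58.1 to 112 TPM in clone 2 and 0.34 to 4.33 TPM in wild type. Both were far higher in clone 2 than in the other lines. Wnk1, the broadly made kinase of its family, was at 24.9 to 41.9 TPM in clone 1, 41.1 to 83.3 TPM in clone 2 and 34.4 to 63.8 TPM in wild type and differed by −0.07 with plasmid (adjusted p = 0.85, limma). Camk2d and Camk2g, the CaMKII subunits made in most tissues, rose by 1.18 (adjusted p = 0.0325) and 2.28 (adjusted p = 0.00151) in the mean of the clones, with clone 1 alone at −0.20 and −0.16. Camk2g was at 1.71 to 9.83 TPM in clone 1, 63.4 to 104 TPM in clone 2 and 2.18 to 4.7 TPM in wild type. Nxf1, the general mRNA export receptor, was at −0.23 (adjusted p = 0.522), and its cofactor Nxt1 rose by 2.30 (adjusted p = 0.00235), with clone 1 and wild type at 0 with plasmid. Kcnn4 rose by 1.62 (adjusted p = 0.00109) and was at 0 to 0.289 TPM in clone 1, 2.32 to 11.7 TPM in clone 2 and 0 to 0.71 TPM in wild type. C1qtnf5 rose by 2.68 (adjusted p = 9.85e-05, limma) and was at 0 to 0.584 TPM in clone 1, 2.69 to 41.6 TPM in clone 2 and 0 TPM in wild type. Nxt1, Kcnn4 and C1qtnf5 passed the filter on low values through clone 2 alone, so they could only be called higher. They are part of the count of listed genes that rose with plasmid. Abi1 and Wasf2 of the WAVE complex were at −0.28 (adjusted p = 0.447) and −0.24 (adjusted p = 0.456), not called.

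The profiles most like each gene over the 12 group means were found among 10739 genes, by the root mean square distance of centred log2(TPM + 1) values. The 12 means include the groups that chose the 9 genes, so likeness among the 9 follows from the choice, and the values for other genes are a description. Outside the 9 genes, Syt13 was closest to Nxf3 (0.32), at 0 TPM in clone 1, 0 to 0.605 TPM in clone 2 and 2.16 to 5.87 TPM in wild type. Cd248, the stromal surface protein endosialin, was closest to C1qtnf1 (0.42), at 192 to 355 TPM in clone 1, 128 to 591 TPM in clone 2 and 1040 to 1672 TPM in wild type. Nid1, encoding the basement membrane protein nidogen 1, was second for Ch25h (0.63), at 24.2 to 36.7 TPM in clone 1, 41.4 to 173 TPM in clone 2 and 129 to 196 TPM in wild type, after Ackr4 (0.60). Hist1h1a, a linker histone gene, was second for Camk2a (0.56) and Kcnn3 (0.62).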

How the data were processed

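For each of 24 libraries the authors deposited 1 transcript assembly with a TPM, an FPKM and a coverage value per transcript, per the file headers made by StringTie 2.1.2. The submitters' processing notes name StringTie 1.3.3, bcl2fastq 2.19, Trimmomatic 0.36, HISAT2 2.1.0, SAMtools 1.3 and mm10. No read counts were used, so no count test was run and the counting error per gene is unknown; coverage summed over transcripts came to 2.43 to 5.93 gigabases a library. The deposited TPM, not divided by any further factor here, was summed per gene over transcripts with a reference gene name. An alternative added unnamed transcripts with at least 50% exonic overlap on the same strand; another, chosen after seeing the data, set all bases over the annotated exonic length. Genes at 1 TPM or more in at least 2 libraries entered limma 3.58.1 (R 4.3.3) with a trend on log2(TPM + 1), over the 12 libraries with plasmid in 6 groups (6 residual degrees of freedom). Fold changes are on that scale and understate changes of low genes. Calls needed an adjusted p under 0.05 and a log2 difference of at least 1. The fit was tested on simulated data, where it recovered 53% of genes changed by −1.5 and 88% of those changed by −3 among 17015 genes for the clones against wild type with plasmid, with 11 false calls. There all groups had the wild-type means with plasmid, except for chosen genes over 5 TPM, lowered alike in both clones with plasmid. The simulation held no shift of the clone 2 median, which was 2.00 in the data with plasmid and unnamed added. These rates may therefore not carry over. The deposited FPKM served as an alternative scale. Coverage of the 5′ and 3′ parts of a transcript was divided by a library's gigabases; the library medians used coding transcripts of at least 1500 nt at a coverage of 5 or more. Python 3.11.15, NumPy 2.4.6 and matplotlib 3.10.9 were used. The 9 genes, the family and marker lists and the tests were chosen with earlier results of these data known. Non-members named are family genes called, or at a mean of at least 5 TPM, and the 2 closest profiles per gene.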

Additional observations from a re-analysis of the deposited data

Results flagged for a closer look

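The clones differed from each other in their distance to wild type, by limma's test of clone 2 less clone 1, for some of the 9 genes. With plasmid, 2 were lower and 2 higher with unnamed added (70.4% of all genes called), and 1 lower and 2 higher by named transcripts (70.9%). With both agents, 3 were lower and 2 higher with unnamed added (61.6%), and 0 lower and 1 higher by named transcripts (57.9%). In each of the 4 tests the share of the 9 genes was below that of all genes. With unnamed transcripts added, the differences with plasmid were −1.88 for Camk2a (adjusted p = 0.000255), −2.64 for Kcnn3 (adjusted p = 0.00551), 1.38 for Ly6e (adjusted p = 0.00595) and 1.60 for Ch25h (adjusted p = 0.00896). With MyoD and plasmid they were −1.69 for Camk2a (adjusted p = 0.000584), −2.00 for Kcnn3 (adjusted p = 0.0251), −1.57 for Nhsl1 (adjusted p = 0.0159), 1.25 for Ly6e (adjusted p = 0.0112) and 1.40 for Ch25h (adjusted p = 0.0197). By named transcripts they were −2.25 for Camk2a (adjusted p = 0.0421), 1.60 for Ch25h (adjusted p = 0.0117) and 3.43 for Wnk4 (adjusted p = 0.0292) with plasmid, and 1.40 for Ch25h (adjusted p = 0.0263) with both agents. The median of all genes was 2.15 and 1.80 with unnamed added, and 2.51 and 1.92 by named transcripts. By named transcripts with plasmid, Ly6e at 1.52 and Ch25h at 1.60 turned with median-of-ratios scaling, to −0.50 and −1.5. Wnk4 at 3.43 was at 0.20 with unnamed added (adjusted p = 0.616, limma). It turned to −1.17 (adjusted p = 0.0167, limma) with the ribosomal copy and mitochondria left out as well. Ribosomal share, number of genes detected and coverage along transcripts moved with the clone, and their part was not tested.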

How the results depend on the processing

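Counts of the 9 genes called moved with the transcripts counted and with the libraries left out. For the clones against wild type with plasmid, 4 genes were called by named transcripts, 9 with unnamed added (9 also with the ribosomal copy and mitochondria left out, 8 for clone 2 alone), 8 over the fixed length and 1 by named transcripts in clone 1 alone; leaving out 1 library gave 2 to 4. With both agents 3 were called, and 9, 9, 8 and 9 under the same 4 settings, 5 in clone 1 alone with unnamed added, and 1 to 4 with 1 library left out. Between the clones with plasmid 3 were called, and 1 with no filter, with FPKM or with the ribosomal copy and mitochondria left out. With 0.1 in place of 1 added before log2, library weights, unnamed added or the fixed length, 4 were called. With unnamed added and the ribosomal copy and mitochondria left out, 4 were called, Kcnn3, Camk2a, Wnk4 and Nhsl1, all lower in clone 2. Fewer were called with 1 library left out. Between the clones with both agents 1 was called, and 0 with no filter or library weights, 2 with FPKM or all 24 libraries, 4 with median-of-ratios scaling or the fixed length, 5 with unnamed added, 6 with those and the ribosomal copy and mitochondria left out, and 0 to 2 with 1 library left out. For MyoD in clone 2, 0 were called, and 1, 1 and 2 with unnamed added, with the ribosomal copy and mitochondria left out as well, and over the fixed length, and 0 to 2 with 1 library left out. Without 1 library and with unnamed added, 6 to 9 genes were called with plasmid and 8 to 9 with both agents. The counts against wild type with unnamed added or over the fixed length include Nxf3, which passed the filter on low values through wild type alone. By named transcripts it did so too, and could only be called lower. With plasmid it was among the genes called by named transcripts without replicate 1 of wild type.

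Direction against wild type turned for 2 genes. Wnk4 with plasmid was 1.37 by named transcripts and −0.34 in clone 1 alone, −2.71 with unnamed added (−2.82 and −2.61 for clone 1 and clone 2 alone, −3.63 with the ribosomal copy and mitochondria left out) and −2.49 over the fixed length; with both agents it was −3.49 to 0.63 without 1 library, the higher without replicate 1 of wild type. Thbs2 by named transcripts was 2.47 in clone 2 alone with plasmid and −3.51 to 2.82 without 1 library, the higher without replicate 2 of wild type; with both agents it was 1.18 in clone 2 alone and −4.54 to 2.30 without 1 library, the higher without replicate 1 of wild type. For Thbs2 the 2 wild-type libraries named are those whose leading transcript was listed under the full annotated name. For Wnk4 the cause was not tested. Replicate numbers did not pair the libraries (correlations of deviations −0.06 to 0.05 over 66 pairs of groups); with the replicate block 4, 3, 3 and 1 genes were called in the first 4 comparisons, as without it. With 2 libraries a group, smaller differences can be missed.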
